A study of Mus musculus with 9 samples.

Results

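The genes described here drive and carry out the cell cycle: they license and copy DNA, supply its nucleotides, run the cyclin-dependent kinases and build and check the spindle. They were measured in CD11b+ cells, the surface marker of granulocytes, monocytes and macrophages, in female mice of 8 to 12 weeks of age, the spleen being the source. A list of 44 genes was matched by exact gene symbol to the probe sets of the Affymetrix MG-U74Av2 array. Of these, 41 genes had at least 1 probe set (56 probe sets in all, of 12488 on the array), and 36 passed a filter on low values and were tested, among 6371 tested genes of 8252 named on the array. The genes Mcm6, Prim1, Prim2, Ccne2 and Tacc3 were too dim for the filter. Ccnb1 and Bub1b were not in the annotation used, and Tyms was carried only by 2 probe sets that also name a pseudogene, so expression of these 3 genes was not analysed here.

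The 9 arrays form 3 groups of 3. "Tumor-free" is CD11b+ cells from mice without a tumor, "fresh" is the same sort from tumor-bearing mice at time 0, and "cultured" is CD11b+ cells of tumor-bearing mice that were kept for 24 h in complete medium. No cells of tumor-free mice were cultured, so between cultured and tumor-free cells the tumor and the culture cannot be told apart. The sources used here name neither the tumor, nor the mouse strain, nor what the medium held. Whether replicates are separate mice is not stated either, so the p-values describe the scatter of these samples alone, and that scatter may be technical. In bulk RNA, fewer cycling cells and less RNA per cell cannot be told apart.

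A cell that divides first loads the MCM helicase onto its replication origins, a step that Cdc6 promotes, and later opens the DNA with the MCM ring and Cdc45. Ribonucleotide reductase (Rrm1 and Rrm2) and thymidine kinase (Tk1) supply nucleotides, and Pcna clamps the polymerase to its template. E2f1 and cyclin E with Cdk2 act at entry into S phase, whereas cyclin B with Cdk1 acts at mitosis. Mature neutrophils and monocytes do not normally divide, whereas their precursors in bone marrow and in an enlarged spleen do.

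Of 11 myeloid markers, 10 had a probe set. Itgam, which encodes CD11b itself, had signals of 244 to 954 across the arrays, and S100a8, a neutrophil calcium-binding protein, 7642 to 17393. Fcgr3, an Fc receptor, was dim at 5.15 to 45.2. Csf3r, the G-CSF receptor, was at 965 to 1596 in tumor-free, 473 to 530.4 in fresh and 278 to 491 in cultured cells. It passed the limma threshold in fresh and in cultured against tumor-free cells (adjusted p = 0.0413 and 0.0133), but not with the mean of its probe sets (0.219 and 0.0748), and reached 0.201 and 0.0796 on leaving out 1 tumor-free array. Array tumor-free 1 had a correlation as low as 0.823 with an array of its own group, fresh 3 one of 0.874 and cultured 3 one of 0.850, whereas the other pair of each group correlated at 0.929 to 0.957. These 3 arrays therefore stand apart, and results that rest on cultured 3 are given with and without it. The arrays were also split at the median of their mean log2 spike-in control signal. The high class is tumor-free 1, fresh 1, fresh 2, cultured 1 and cultured 2, and the low class is the other 4. Each group straddles both. The cut runs between near values, fresh 2 at 9.89 (high) and tumor-free 2 at 9.79 (low), while cultured 1 and 2 were both at 10.51. The classes are thus not distinct sets of arrays, and the spike-in signal still varies within each. The ratio of beta-actin 3' to 5' signal, which rises as RNA or its copies are shorter, was 2.57, 0.994 and 1.19 on the tumor-free arrays, 1.59, 1.58 and 1.35 on the fresh arrays and 2.27, 2.36 and 1.16 on the cultured arrays.

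Signals below are those of the deposited table, and log2 fold changes are differences of group means on the log2(signal + 7.83) scale, which understates changes of dim genes. A change is called where the Benjamini-Hochberg adjusted p of the limma fit across all probe sets is below 0.05.

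Per-array means of the members' deviations from their own 9-array mean show the pattern first. The 36 tested members averaged 0.05, -0.01 and 0.28 (log2) on the tumor-free arrays, 0.15, 0.20 and 0.38 on the fresh arrays, and -0.38, -0.82 and 0.16 on the cultured arrays. The group means were 0.11 ± 0.16 for tumor-free, 0.24 ± 0.12 for fresh and -0.35 ± 0.49 for cultured (SD, n = 3). Cultured 1 and cultured 2 lay below every other array, while cultured 3 lay within the range of the fresh and tumor-free arrays. Over all 6371 genes the same mean stayed between -0.09 and 0.05 on every array. Cultured 3 was the highest of the cultured arrays in 26 of the 36 members (72.2%) against 32.9% of all genes, and cultured 2 was the lowest of all 9 arrays in 22 members (61.1%) against 8.38% of all genes.

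**Figure D1:**
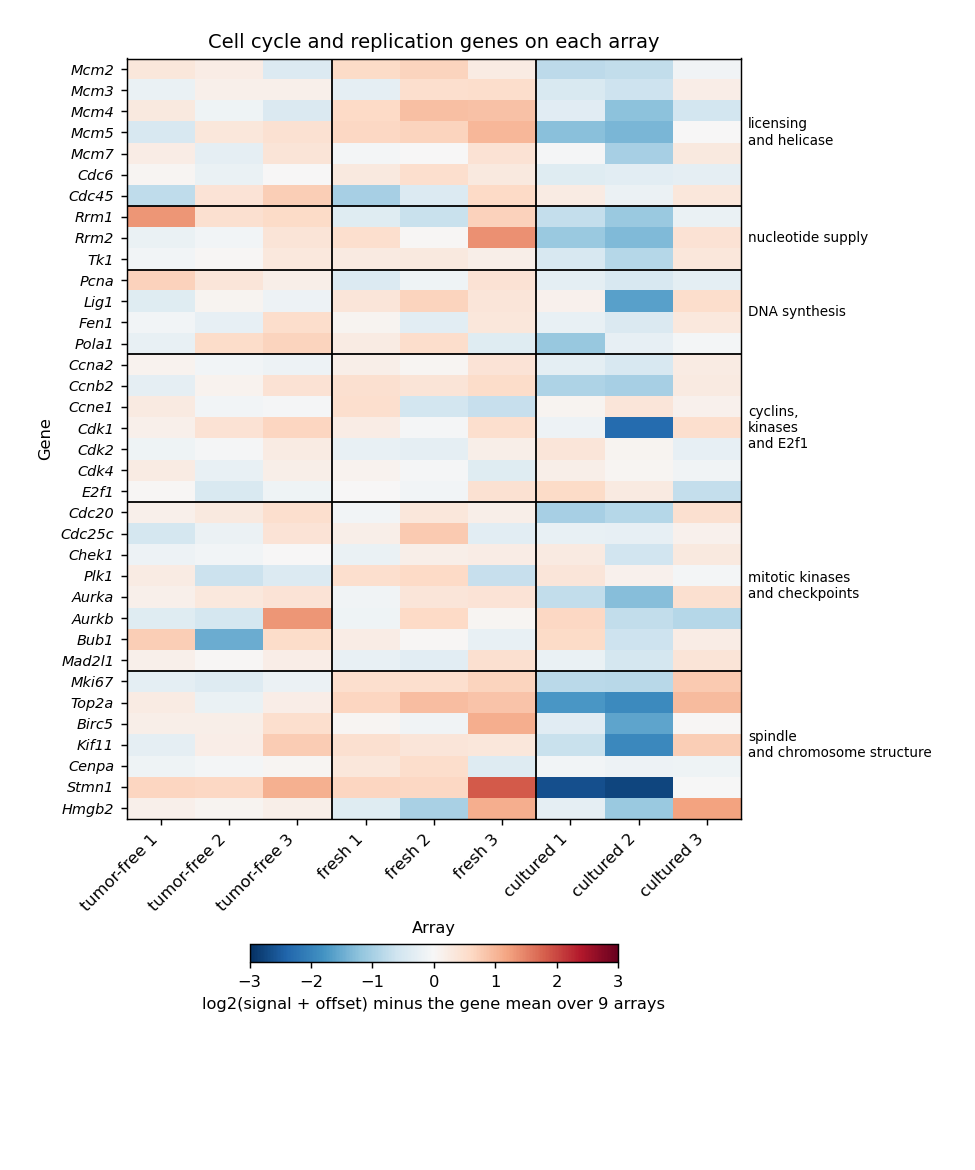
Deviation of each of the 36 tested genes (rows, by role group) from its 9-array mean on each array (columns, by group), in log2 units on a colour scale from -3 to 3. Cultured 1 and cultured 2 are the columns with mostly negative values, with member means of -0.38 and -0.82, and cultured 3 is at 0.16.

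Split by role, the licensing genes averaged -0.42, -0.78 and -0.01 on the cultured arrays, the nucleotide supply genes -0.78, -1.11 and 0.20, and the spindle and chromosome structure genes -0.94, -1.46 and 0.51. The cyclins, kinases and E2f1 averaged -0.02, -0.43 and 0.01. Cultured 1 and 2 were thus lowest in the spindle group and nearest to 0 among the cyclins and kinases, a difference between role groups that was not tested. On fresh 3 the spindle group averaged 0.79, the highest value of any group on any array.

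**Figure D2:**
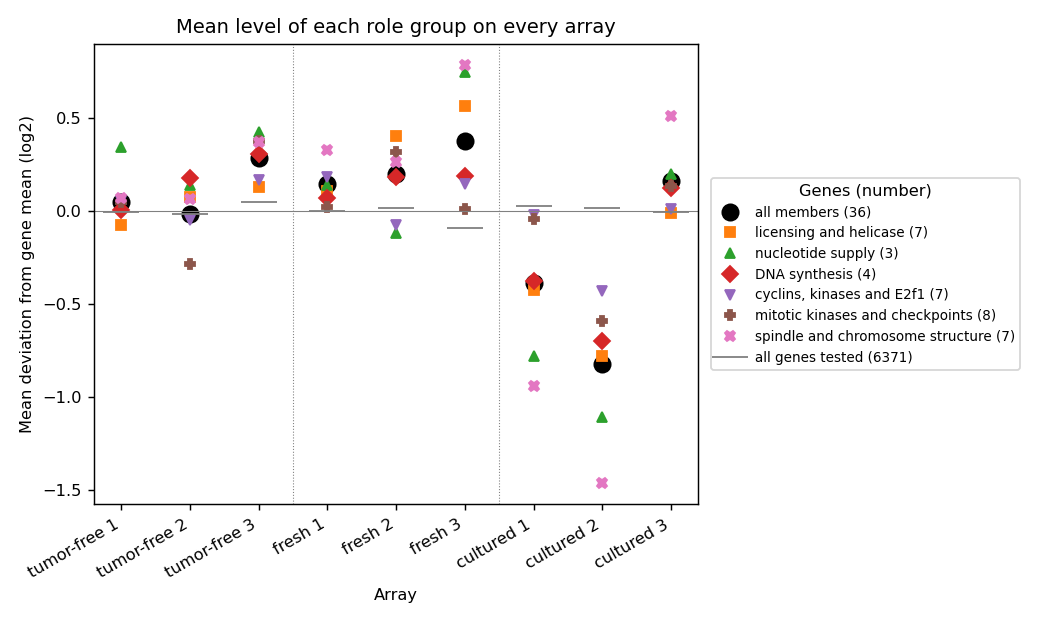
Mean deviation from the 9-array mean (log2) of the tested genes of each role group on each of the 9 arrays, with 1 marker shape and colour per role group, a black circle for all members and a grey line for all genes. The spindle and chromosome structure group ranges from -1.46 on cultured 2 to 0.79 on fresh 3, while the cyclins and kinases stay between -0.43 and 0.18.

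The first comparison, fresh against tumor-free, asks how the cells of tumor-bearing mice differ from those of mice without a tumor. No member passed the limma threshold, against 1.95% of all genes tested, and 1 member, Mcm4, had an unadjusted p below 0.05. Of the 36 members, 23 were higher and 13 lower, with log2 fold changes of -0.91 to 0.87 and a median of 0.15 against -0.01 for all genes. The 3 fresh arrays lay above all 3 tumor-free arrays in 6 members (Mcm4, Mcm5, Cdc6, Lig1, Mki67 and Top2a) against 9.21% of all genes, and below them in 0 members against 14.0% of all genes.

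Mcm4, a subunit of the replicative helicase, had signals of 117, 85.0 and 68.0 on the tumor-free arrays, 145, 181 and 179 on the fresh arrays and 73.1, 35.5 and 61.7 on the cultured arrays. The fresh arrays were above all others, and tumor-free and cultured arrays overlapped. Its group means were 90.1 ± 25.0, 168.7 ± 20.1 and 56.8 ± 19.2 (SD, n = 3), and the fresh against tumor-free log2 fold change was 0.87 ± 0.30 (SE, adjusted p = 0.180).

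Mcm5, another subunit, had signals of 96.6, 175 and 191 in tumor-free, 218, 224 and 284 in fresh and 53.6, 48.3 and 138 in cultured cells. The fresh arrays were again the highest of the 9, with a fresh against tumor-free log2 fold change of 0.67 ± 0.39 (adjusted p = 0.401). A second, dim probe set for Mcm5 did not follow it, with a cultured against fresh log2 fold change of -0.06. Cdc6 signals were 56.8, 46.9 and 55.5, then 68.2, 79.97 and 68.2, then 40.3, 41.9 and 44.2. For Cdc6 all 3 groups were separate, fresh above tumor-free above cultured, with a narrow spread of 1.96 (SD) in the cultured group.

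Mki67, the gene of the proliferation antigen Ki-67, had signals of 121, 114 and 134 in tumor-free, 217, 218 and 246 in fresh and 82.9, 81.5 and 266 in cultured cells. The fresh group was high and tight, the tumor-free group low and tight, and the cultured group held both the lowest and the highest of the 9 arrays. Its fresh against tumor-free log2 fold change was 0.84 ± 0.39 (adjusted p = 0.303). A second Mki67 probe set differed from it on several arrays. Its signals were 68.2, 56.3 and 73.8 in tumor-free, 108.6, 167.5 and 43.2 in fresh and 66.5, 40.3 and 36.4 in cultured cells. There fresh 3 lay below all tumor-free arrays, and cultured 3 was the lowest of the 9 in place of the highest. Cultured 1 lay within the tumor-free range there, in place of below it. Top2a, which untangles replicated DNA, had signals of 49.5, 34.45 and 47.95, then 68.5, 84.4 and 80.5, then 6.53, 5.13 and 86.1. Its tumor-free and fresh arrays did not overlap, at 0.73 ± 0.62 (adjusted p = 0.567), and cultured 1 and 2 lay below the offset of 7.83 while cultured 3 was the highest of all.

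The lowest log2 fold change was that of Rrm1, the large subunit of ribonucleotide reductase, with signals of 80.2, 41.4 and 45 in tumor-free, 19.7, 14.3 and 49.1 in fresh and 13.5, 8.37 and 23.1 in cultured cells. Its log2 fold change, fresh against tumor-free, was -0.91 ± 0.43 (adjusted p = 0.314), with fresh 3 inside the tumor-free range. Rrm2, the small subunit, had the opposite sign at 0.61. Pcna, the brightest DNA synthesis gene, had signals of 599.5, 474 and 419, then 274, 334 and 498, then 299.6, 262 and 298, with a log2 fold change of -0.45 ± 0.27 (adjusted p = 0.409). Cdc45 signals were 24.45, 64.4 and 83.2, then 19.4, 33.35 and 75.0, then 57.15, 40.4 and 60.8, and its groups overlapped throughout.

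Markers of other cell types also differed between these groups. The summed signal of 5 measured immature granulocyte markers (7 listed) was 124 to 557 on the tumor-free and 796 to 2382 on the fresh arrays, and that of 12 erythroid markers (16 listed) was 1333 to 3842 and 8145 to 9326. None of the 5 immature granulocyte and 10 erythroid genes tested was called by limma, with 4 and 5 at an unadjusted p below 0.05, and the erythropoietin receptor gene Epor had a log2 fold change of -0.90. Hematopoietic progenitor sums (6 of 7 measured) lay the other way, at 414 to 909 in tumor-free and 368 to 493 in fresh cells. Summed pancreas acinar genes (9 measured of 12) were 583 to 884 in tumor-free against 12392 to 20926 in fresh cells. Of these 9, 8 were called higher by limma, against 0.879% of all genes. No signal on the array was at exactly 0. The part of these cells in the members' values was not tested. Within the high spike-in class (tumor-free 1, fresh 1 and fresh 2) 0 members were called by limma, 16 were negative and the median was 0.10. Within the low class (tumor-free 2, tumor-free 3 and fresh 3) 10 were negative and the median was 0.25, with 1 fresh array and so no measure of the spread of that group.

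The second comparison, cultured against fresh, asks what 24 h in medium did to the cells of tumor-bearing mice. It shares the fresh arrays with the first. Of the 36 members, 2 fell, Stmn1 and Mcm4 (5.56%), against 1.1% of all genes called lower, and 8 had an unadjusted p below 0.05, all lower. The median log2 fold change was -0.56 against 0.02 for all genes, with 29 members negative and a range of -2.83 to 0.43. The cultured arrays lay below all fresh arrays in 6 members (Mcm2, Mcm4, Mcm5, Cdc6, Ccnb2 and Stmn1) against 9.31% of all genes, and above them in 0 members against 13.8%. Medians by role were -0.97 for spindle and chromosome structure, -0.68 for licensing, -0.58 for nucleotide supply, -0.47 for DNA synthesis, -0.21 for mitotic kinases and checkpoints and -0.08 for cyclins, kinases and E2f1.

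Mcm4 fell by 1.49 ± 0.30 on the log2 scale (SE, adjusted p = 0.0261). On all arrays but fresh 1 it was not called (adjusted p = 0.0761), nor without fresh 2 (0.108), fresh 3 (0.0702) or cultured 2 (0.115, log2 fold change -1.23). Within spike-in classes the log2 fold change was -1.52 in the high and -1.43 in the low class.

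Stmn1, which encodes the microtubule-destabilizing protein stathmin, had signals of 178, 176 and 242 in tumor-free, 177, 174 and 418 in fresh and 11.2, 9.81 and 110.4 in cultured cells. All 3 cultured arrays were below all 6 others, and fresh 3 and cultured 3 were the highest of their groups. It fell by 2.83 ± 0.64 on the log2 scale (adjusted p = 0.0434). The call was lost with median centring (adjusted p = 0.0606), the 5th percentile as offset (0.0501), no filter (0.0599), no intensity trend (0.0517) and only the 2 groups compared (0.0565). It was also lost on leaving out any of 7 arrays: tumor-free 2 (adjusted p = 0.0603), tumor-free 3 (0.0638), fresh 1 (0.103), fresh 2 (0.102), fresh 3 (0.123), cultured 1 (0.142) and cultured 2 (0.170).

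Mcm5 had a log2 fold change of -1.64 ± 0.39 (adjusted p = 0.0513) and Mcm2 -1.03 ± 0.30 (adjusted p = 0.102). Mcm2 signals were 119, 109.7 and 67.8, then 141, 152 and 110.5, then 50.8, 52.1 and 86.3, so that every cultured array was below every fresh array. Mcm3 had -0.55 on its brightest probe set and -0.92 on the other, and Mcm7 had -0.37. Cdc6, steady within groups, had -0.68 ± 0.24 (adjusted p = 0.181).

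Promoters are shown for 5 of the 19 members that lay below all fresh arrays on cultured 1 and 2, to let motifs be read beside the values. From RefSeq (GRCm38.p6), the 250 bases upstream of the start were searched on both strands for CCAAT, for TTTGAA or TTCGAA (the cell cycle homology region) and for GCGGGAA (an E2F core). Matches are in capitals, as read on the gene's strand, 5′ to 3′. The regions are Mcm2 at chr6:88898781-88899030 (minus strand), Mcm5 at chr8:75109259-75109508 (plus), Cdc6 at chr11:98907901-98908150 (plus), Ccnb2 at chr9:70421555-70421804 (minus) and Top2a at chr11:99024190-99024439 (minus).
Mcm2: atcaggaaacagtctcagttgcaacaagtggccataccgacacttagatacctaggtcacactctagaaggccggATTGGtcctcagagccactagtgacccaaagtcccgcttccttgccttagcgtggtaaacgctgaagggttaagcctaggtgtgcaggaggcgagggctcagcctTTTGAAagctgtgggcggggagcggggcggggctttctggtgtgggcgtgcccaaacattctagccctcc
Mcm5: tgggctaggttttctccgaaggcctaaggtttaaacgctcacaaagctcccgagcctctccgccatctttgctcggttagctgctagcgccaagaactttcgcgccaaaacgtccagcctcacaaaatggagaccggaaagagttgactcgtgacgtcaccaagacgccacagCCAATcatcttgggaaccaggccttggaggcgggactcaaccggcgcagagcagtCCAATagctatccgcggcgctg
Cdc6: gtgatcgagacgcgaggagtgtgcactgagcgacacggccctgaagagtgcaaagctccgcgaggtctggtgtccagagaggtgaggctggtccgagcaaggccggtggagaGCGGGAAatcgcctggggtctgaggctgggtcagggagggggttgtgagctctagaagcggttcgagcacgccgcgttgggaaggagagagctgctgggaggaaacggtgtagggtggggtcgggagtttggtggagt
Ccnb2: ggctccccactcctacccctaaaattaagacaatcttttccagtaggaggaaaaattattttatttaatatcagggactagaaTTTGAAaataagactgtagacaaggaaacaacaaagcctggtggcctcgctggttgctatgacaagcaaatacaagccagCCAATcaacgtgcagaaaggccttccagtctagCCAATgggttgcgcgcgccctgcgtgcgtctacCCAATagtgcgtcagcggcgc
Top2a: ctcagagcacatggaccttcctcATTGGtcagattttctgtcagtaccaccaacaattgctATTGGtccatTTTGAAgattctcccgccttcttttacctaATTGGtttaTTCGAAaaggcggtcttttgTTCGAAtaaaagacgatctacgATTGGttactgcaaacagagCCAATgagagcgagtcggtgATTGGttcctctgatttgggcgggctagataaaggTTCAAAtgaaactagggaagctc

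Top2a carried 6 CCAAT matches and 4 homology region matches, Ccnb2 3 and 1, Mcm2 1 and 1, and Mcm5 2 CCAAT matches alone, whereas Cdc6 held an E2F core and neither of the others. The 5 shown do not stand for all 19 members: Tk1, Birc5 and Lig1, also among them, had promoters without a match of any of the 3 motifs. Mcm4 and Stmn1, the members called in this comparison on all arrays, are among the 19 too. They had no entry in the promoter set, so no motif could be read for them. In 41 promoters of 37 listed genes, some of them without a tested probe set, CCAAT was found in 26 (63.4%) against 33.8% of all 32851 promoters, the homology region in 12 (29.3%) against 17.1%, and the E2F core in 7 (17.1%) against 3.82%. Both CCAAT and the homology region were found in 11 (26.8%) against 6.02%. The 35 promoters of the 31 tested members with an entry gave 62.9%, 31.4% and 17.1% for the 3 motifs. A match is a description of letters and not a binding site.

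Among the mitotic and spindle genes, Ccnb2, a mitotic cyclin and the brightest of the cyclins, had signals of 237, 311 and 390.1 in tumor-free, 406, 383 and 424 in fresh and 148, 139.9 and 353 in cultured cells. Cultured 3 was close to the fresh range, and the log2 fold change was -1.03 ± 0.35 (adjusted p = 0.156). Top2a had -1.72 ± 0.62 (adjusted p = 0.188) and Mki67 -0.84 ± 0.39 (adjusted p = 0.310), both with cultured 3 above the fresh group's mean. Kif11, a spindle motor, had signals of 56.5, 51.3 and 50.4 in fresh and 20.8, 4.10 and 67.95 in cultured cells, and a log2 fold change of -1.03 ± 0.56 (adjusted p = 0.405). In nucleotide supply, Rrm2 had -1.31 ± 0.48 (adjusted p = 0.192). Its signals were 77.8, 85.1 and 121 in tumor-free, 133, 93.7 and 249 in fresh and 37.65, 31.55 and 126 in cultured cells. Tk1 signals were 109, 118 and 145 in tumor-free, 141, 143 and 131 in fresh and 79.8, 59.8 and 149 in cultured cells, with cultured 3 above both groups.

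The highest values in this comparison were those of Ccne1, Cdc45 and Cdk2. Cdc45, given above, had 0.40 ± 0.47 with overlapping groups. Ccne1, cyclin E, had signals of 130.35, 101 and 106, then 156, 71.7 and 64.1, then 115, 141 and 118, with a log2 fold change of 0.43 ± 0.32 (adjusted p = 0.576), the highest of the 36. Cdk2 signals were 125, 135 and 165, then 116, 113 and 156, then 179.8, 146 and 115, at 0.18 ± 0.26. Cdk4 was at 302, 273 and 217 in fresh and 320.1, 292 and 262 in cultured cells, with overlapping groups. Cdk1, the mitotic kinase, was at 103, 127 and 148 in tumor-free, 109, 90.1 and 134 in fresh and 81.6, 12.4 and 133 in cultured cells. Cultured 2 was the lowest by far, and the log2 fold change was -0.89 ± 0.57. Plk1, the brightest mitotic kinase, had signals of 187, 98.2 and 116, then 227, 242 and 93.8, then 203, 174 and 150.1, without separation. Its other probe sets had log2 fold changes of -0.05 and 0.10, and for fresh against tumor-free 1 of them had -0.30 against 0.41 on the brightest.

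**Figure D3:**
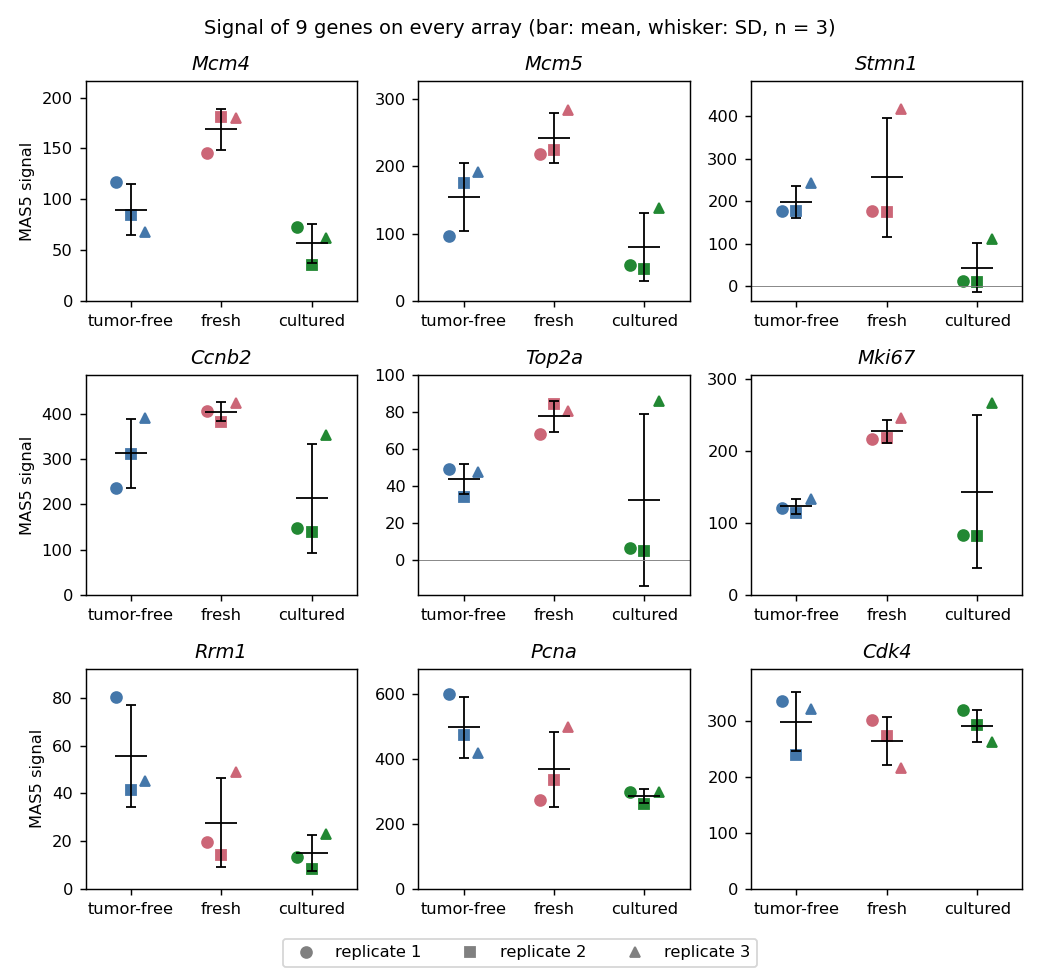
Deposited signal (linear axes that include 0) of 9 genes on each array by group, with replicates as separate marker shapes, a bar at the mean and whiskers of 1 SD (n = 3). Mcm4 and Stmn1 lie lower in cultured than in fresh cells, while Top2a and Mki67 have 2 low cultured arrays and 1 (cultured 3) at 86.1 and 266.

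Without cultured 3, 9 of 36 members were called lower (25.0%) against 2.15% of all genes. They were Stmn1 (-3.73 ± 0.39, adjusted p = 0.00157), Top2a (-2.65 ± 0.30, 0.00265), Mcm5 (-2.08 ± 0.32, 0.00842), Mki67 (-1.38 ± 0.23, 0.0122), Ccnb2 (-1.44 ± 0.26, 0.0158), Rrm2 (-1.87 ± 0.39, 0.0283), Mcm4 (-1.57 ± 0.34, 0.0330), Cdc20 (-1.07 ± 0.26, 0.0454) and Mcm2 (-1.25 ± 0.30, 0.0474). Cdc20, an activator of the anaphase-promoting complex, had signals of 134, 147 and 173 in tumor-free, 113, 152 and 137 in fresh and 56.1, 62.0 and 168 in cultured cells. Cultured 3 was above both other cultured arrays and above all fresh arrays. Kif11, Aurka and Tk1 had adjusted p of 0.0597, 0.0730 and 0.0766. The members' median was -0.75, and both remaining cultured arrays lay below all fresh arrays in 19 members against 16.9% of all genes. Without the 3 arrays that stand apart, 11 members (30.6%) were called lower against 6.73% of all genes. Leaving out cultured 2 alone gave 0 members called, against 0.863% of all genes, with 26 of 36 negative and a median of -0.28. Leaving out cultured 1 alone gave 1 member called lower, Mcm4 (2.78%), against 0.722% of all genes, with a median of -0.47.

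Within the high spike-in class (fresh 1 and 2, cultured 1 and 2) 10 members were called lower (27.8%) against 5.29% of all genes. These are the same fresh and cultured arrays as in the fit without the 3 arrays that stand apart. The log2 fold changes are therefore identical, only the estimate of the spread differs, and the fits are not separate checks. Within the low class 1 fresh array faces 1 cultured array, so these values have no measure of either group's spread. Of the 36 members, 20 were negative there, with a median of -0.05. With the class as a block 5 were called lower (13.9%) against 2.53%. The spike-in signal was 9.93 and 9.89 on fresh 1 and 2 against 10.51 on cultured 1 and 2. In the low class it was 9.03 on fresh 3 and 9.29 on cultured 3. Between cultured and fresh cells, spike-in level and group thus cannot be told apart within a class. Stmn1 had log2 fold changes of -3.32 in the high and -1.85 in the low class, and Mcm5 -1.96 and -0.995. The beta-actin ratio was higher on cultured 1 and 2, the arrays with low members, than on cultured 3 or any fresh array. Tumor-free 1, however, had the highest ratio of all arrays (2.57) with a member mean of 0.05. With the beta-actin ratio as a covariate 3 members (Mcm4, Mcm5 and Stmn1) were called lower (8.33%) against 1.96% of all genes. The members' median was then -0.44 in place of -0.56.

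**Figure D4:**
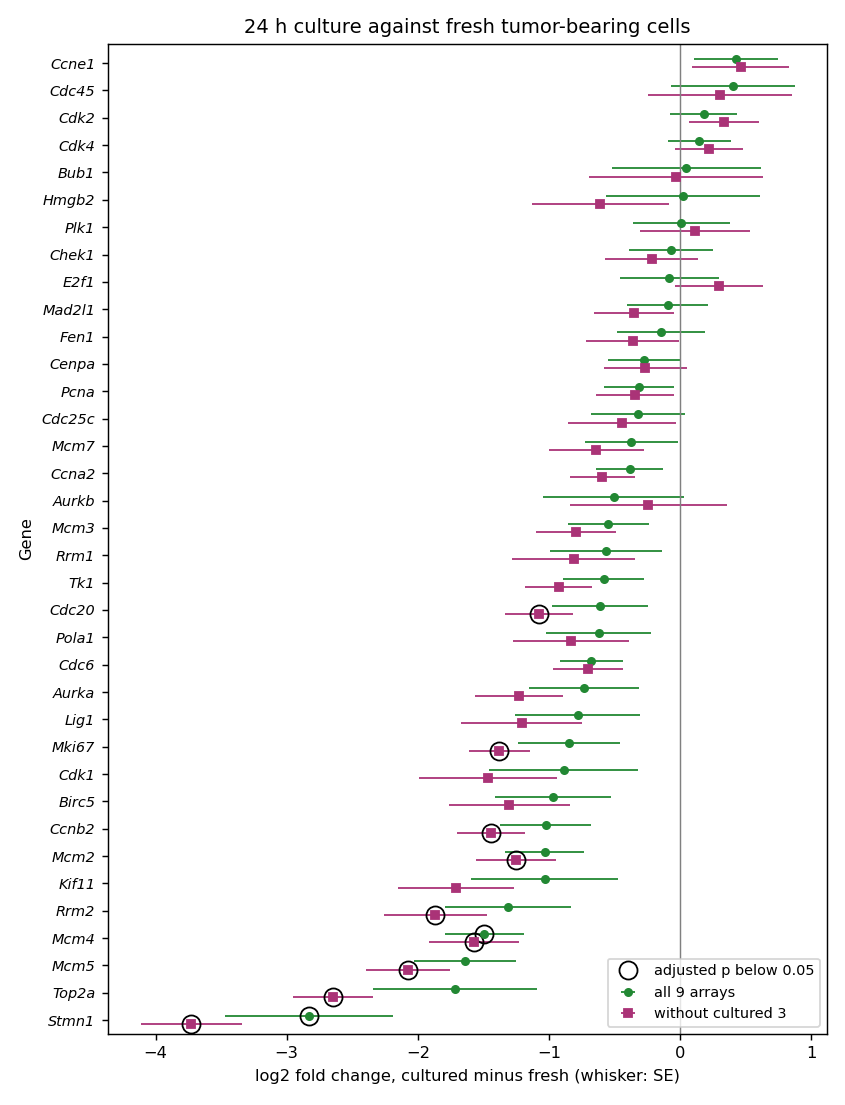
Cultured against fresh log2 fold change (± SE) of each tested gene on all 9 arrays and again without cultured 3, circled where the adjusted p is below 0.05. Circles number 2 on all arrays and 9 without cultured 3, and the values stay negative for 29 and 30 of the 36 genes.

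Markers of other cell types also differed between the cultured arrays. Erythroid sums were 3853, 1899 and 11096 on cultured 1, 2 and 3 against 8145 to 9326 in fresh cells, so cultured 3 was the highest of these. Hba-a1 was at 1522, 549 and 6541 and Alas2 at 60.8, 28.2 and 271. The list did not move as one: Tfrc went the other way at 662, 670 and 329. Klf1 was at 71.6, 38.4 and 46.6, highest on cultured 1, and Epor was nearly level at 18.8, 16.3 and 20.4. The sums are weighted to bright genes such as Hba-a1. Immature granulocyte sums were 242, 117 and 283, below every fresh array, and pancreas acinar sums were 1125, 595 and 556. Sums of CD11b+ myeloid markers (10 of 11 measured), in which S100a8 and S100a9 are the brightest, were 29683 to 47034 in cultured and 33423 to 45498 in fresh cells. Of the other lists, B cell sums were 343 to 1504, T cell 262 to 511, NK cell 73.2 to 247 and progenitor 309 to 909 over all arrays. Of 10 erythroid genes tested, 0 were called in this comparison by limma and 4 had an unadjusted p below 0.05, all lower. Of 5 immature granulocyte genes tested, 2 were called lower by limma, against 1.1% of all genes. They were Mpo (-3.68, adjusted p = 0.0409) and Prtn3 (-2.56, adjusted p = 0.0355), while a second Mpo probe set had -0.27. Of 9 pancreas acinar genes tested, 8 were called lower. The part of these cell types in the members' values was not tested.

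The third comparison, cultured against tumor-free, shares arrays with both others. No member was called by limma, against 1.26% of all genes, and 4 members had an unadjusted p below 0.05, all lower. The median log2 fold change was -0.34 against 0.03 for all genes, with 29 of 36 negative. The cultured arrays lay below all tumor-free arrays in 5 members (Cdc6, Rrm1, Pcna, Birc5 and Stmn1) against 8.81% of all genes, and above them in 0 against 9.81%. Stmn1 had -2.58 ± 0.64 (adjusted p = 0.0898), Rrm1 -1.47 ± 0.43 (adjusted p = 0.146), Cdk1 -1.07 ± 0.57 (adjusted p = 0.449) and Pcna -0.77 ± 0.27 (adjusted p = 0.219). Birc5, the apoptosis inhibitor survivin of the chromosomal passenger complex, was at 59.3, 59.9 and 77.3 in tumor-free, 54.0, 47.7 and 119.8 in fresh and 39.3, 12.3 and 53.6 in cultured cells. Rrm1 and Pcna had their lowest group mean in cultured cells, and Plk1 and E2f1 had the highest positive values, 0.42 ± 0.37 and 0.23 ± 0.38. E2f1 was at 30.85, 19.8 and 26.5 in tumor-free, 30.3, 27.8 and 43.9 in fresh and 48.5, 37.8 and 15.2 in cultured cells. Without cultured 3, 3 members were called lower (8.33%) against 1.43% of all genes: Stmn1 (adjusted p = 0.00463), Top2a (0.0134) and Cdc20 (0.0416). The 2 cultured arrays then lay below all tumor-free arrays in 21 members against 16.5% of all genes. Without the 3 arrays that stand apart, 12 members were called lower (33.3%) against 11.4% of all genes, and Plk1 was called higher. That fit sets tumor-free 2 and 3, both of the low spike-in class, against cultured 1 and 2, both of the high class, so class and group cannot be told apart in it. Within the high class, with 1 tumor-free array, 2 members (Stmn1 and Top2a) were called lower (5.56%) against 3.36% of all genes. Within the low class, with 1 cultured array, 16 of 36 members were negative and the median turned to 0.03, with log2 fold changes of 1.08 for Hmgb2, 1.06 for Mki67 and 0.95 for Top2a.

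Lig1, the ligase that joins lagging-strand fragments, was at 45.7, 64.2 and 53.65 in tumor-free, 79.98, 101 and 79.8 in fresh and 67.4, 14.3 and 91.2 in cultured cells. Its fresh arrays lay above the tumor-free arrays, and cultured 2 was the lowest of the 9. A second, dim Lig1 probe set was at 17.97, 5.70 and 17.9 in tumor-free and 45.9, 32.7 and 11.6 in fresh cells, which overlapped. Of the members not yet given by value, Fen1 (flap removal), Pola1 (primer synthesis), Ccna2 (cyclin A), Cdc25c, Chek1, Aurka, Aurkb, Bub1 and Mad2l1 (mitotic entry and checkpoints) and Cenpa (the centromeric histone) were called in none of the 3 comparisons, and their groups overlapped in each. Aurka, a centrosome kinase, was at 31.0, 46.1 and 48.2 in fresh and 17.5, 9.43 and 50.8 in cultured cells, again with cultured 3 the highest and cultured 2 the lowest. The 5 genes under the filter had low signals, from 0.35 for Ccne2 to 24.85 for Tacc3, on both sides of the offset of 7.83, and nothing is read from them.

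Hmgb2, a chromatin protein of dividing cells and the brightest spindle and chromosome structure gene tested, was at 205, 196 and 208 in tumor-free, 143, 90.9 and 402 in fresh and 152, 81.9 and 437 in cultured cells. Fresh 3 and cultured 3, both of the low spike-in class, were far above the other arrays of their groups, and no comparison separated it.

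Of 140 further cell cycle genes, 112 had a probe set and 97 were tested. Of the 97, 1 was called between fresh and tumor-free cells (against 1.95% of all genes), 1 was called lower between cultured and fresh cells (against 1.1%) and 2 were called between cultured and tumor-free cells (against 1.26%), shares near the background. Between fresh and tumor-free cells it was Ccnd1 (cyclin D1, which drives exit from quiescence), at 237, 187 and 187 in tumor-free, 85.6, 77.5 and 34.2 in fresh and 47.7, 44.8 and 56.3 in cultured cells. It fell by 1.60 ± 0.32 (log2, adjusted p = 0.0304), and by 1.88 ± 0.32 in cultured against tumor-free (adjusted p = 0.0192). A dimmer probe set of Ccnd1 did not follow it (0.30 ± 0.53), and with the mean of both the calls were lost (-0.65, adjusted p = 0.394, and -1.05, adjusted p = 0.232). The first call was also lost without tumor-free 2 (0.116), tumor-free 3 (0.115), fresh 1 (0.0567), fresh 2 (0.0769) or cultured 2 (0.0526), and the second without tumor-free 2 (0.0710), tumor-free 3 (0.0801), cultured 1 (0.0734) or cultured 2 (0.0874).

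Between cultured and fresh cells it was Lmnb1, a lamin of the nuclear envelope. It had signals of 274, 280.1 and 245 in tumor-free, 351, 322 and 467 in fresh and 86.2, 64.4 and 77.4 in cultured cells. All 3 cultured arrays, cultured 3 included, were below all others. It fell by 2.20 ± 0.24 (log2, adjusted p = 0.000857) against fresh and by 1.72 ± 0.24 (adjusted p = 0.00833) against tumor-free, and kept both calls on leaving out any 1 array. The medians of the 97 genes were 0.01, -0.20 and -0.11 in the 3 comparisons, smaller in size than those of the members.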

How the data were processed

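CD11b+ spleen cells were profiled on 9 arrays, 3 per group by sample title, from total RNA labelled as biotinylated cRNA per the labels. The deposited values are MAS5 intensity on a linear scale, per the submitters' processing notes; the MAS5 settings and detection calls were not given in the sources used here, so whether a dim signal is above background is unknown. Arrays had been scaled before deposit and were used as they were. The scale used is log2(signal + 7.83), with an offset equal to the 20th percentile of all values. The 66 control probe sets and the 30% lowest means were left out, which kept 8695 of 12488. One model with 3 group means was fitted in limma 3.58.1 (R 4.3.3) with an intensity trend, 6 residual degrees of freedom, two-sided tests and Benjamini-Hochberg adjustment at 0.05, and was tested on simulated data. A gene is its brightest probe set. The members and lists were chosen with earlier results of these data known. Values on every array are given for called members, the 3 largest positive and negative changes of each comparison and the brightest of each role group, plus members whose groups did not overlap or that were called without cultured 3, chosen after their values were seen. Over 9 arrays, same-numbered samples deviated together at r = -0.20 to 0.26. With 3 arrays per group this cannot decide whether equal numbers share a mouse or a day, so a pairing is unknown and the main fit uses none. The number of arrays limits the precision. In all, 25 alternatives were tried.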

Additional observations from a re-analysis of the deposited data

How the results depend on the processing

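On leaving out 1 array at a time, called probe sets numbered 63 to 623 for fresh against tumor-free, 74 to 489 for cultured against fresh and 24 to 529 for cultured against tumor-free. Called members numbered 0, 0 to 9 and 0 to 3, and their medians were 0.08 to 0.23, -0.75 to -0.28 and -0.61 to -0.16. The same 3 comparisons, in that order, gave 165, 234 and 107 probe sets on all arrays. They gave 3174, 1902 and 1389 with array weights, 2147, 1374 and 1810 without the 3 arrays that stand apart, 277, 556 and 177 with a block for the spike-in class, 411, 1049 and 444 in the high class alone, 1967, 1393 and 1725 in the low class alone, and 402, 441 and 204 with the beta-actin ratio as a covariate. With only the groups compared, cultured against tumor-free gave 14. Called members numbered 7, 14 and 13 with array weights (19.4%, 38.9% and 36.1%, against 36.9%, 22.7% and 16.2% of all genes), and 3, 11 and 13 without the 3 arrays (8.33%, 30.6% and 36.1%, against 25.2%, 16.5% and 21.2%). They numbered 0, 5 and 1 with the class block (13.9% and 2.78% for the latter pair, against 6.34% and 1.95%), 0, 10 and 2 in the high class (27.8% and 5.56%, against 12.6% and 5.35%) and 5, 4 and 5 in the low class (13.9%, 11.1% and 13.9%, against 23.3%, 15.9% and 20%). In the low class the spread comes from tumor-free 2 and 3 alone, so its calls say nothing of the spread of fresh or cultured cells. Without the 3 arrays, both comparisons with tumor-free cells set low-class against high-class arrays. For cultured against fresh, the fit without the 3 arrays and the high class use the same fresh and cultured arrays, so they are not separate checks. In the low class the members' median was -0.0513 for cultured against fresh and 0.0339 for cultured against tumor-free. The sign also turned there for Hmgb2 (0.97 in fresh and 1.08 in cultured, each against tumor-free), Mki67 (1.06) and Top2a (0.95, both in cultured against tumor-free). Between cultured and fresh cells 1 member was called with median centring, the 5th percentile as offset, no filter or no intensity trend, since Stmn1 then had adjusted p of 0.0606, 0.0501, 0.0599 and 0.0517. With only the 2 groups compared Stmn1 also missed the threshold (0.0565) and Mcm5 passed it (0.0455). The causes were not tested. With the replicate block, probe sets called were 200, 258 and 144, and members called were 0, 3 (Mcm4, Mcm5 and Stmn1) and 1 (Stmn1, adjusted p = 0.0189), and 4 of 9 arrays correlated best with their own number.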
